A study of Homo sapiens with 10 samples.

Results

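The transcription factor ATF4 and 9 genes around it were followed in K562 cells, an established human chronic myeloid leukemia cell line, treated with inhibitors of the CREBBP/EP300 bromodomains. The 10 genes were taken by symbol (ATF4, DDIT3, TRIB3, CHAC1, SESN2, ASNS, PHGDH, PSAT1, PSPH and SHMT2) from a table of 23284 genes, and all 10 were among the 12788 genes that averaged 0.5 FPKM or more and entered the tests. FPKM is the number of fragments scaled to transcript length and to library size, so levels of different genes can be set side by side. The cells were unmodified, grew in RPMI with serum, and received vehicle (DMSO), 2 µM CBP30, 5 µM CBP30, 2 µM I-CBP112 or 5 µM I-CBP112 for 48 h, with 2 biological replicates per condition and 10 samples in all. CBP30 and I-CBP112 are different small molecules directed at the same bromodomains, and a single cell line at a single time was measured. The comparisons address how the 10 genes responded to each inhibitor and dose.

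ATF4 is the central effector of the integrated stress response. Kinases that sense amino acid shortage, unfolded protein, heme shortage or double-stranded RNA phosphorylate the translation factor eIF2α, which lowers protein synthesis in general while the ATF4 mRNA is translated more. ATF4 protein then binds DNA together with C/EBP family partners and switches on genes for amino acid synthesis and uptake, tRNA charging and stress signalling, and several of its targets restrain the response again. Because ATF4 is controlled in large part at translation, an mRNA level is not a measure of its protein. The serine pathway branches from glycolysis: PHGDH, PSAT1 and PSPH carry out its successive steps, and SHMT2 converts serine to glycine in mitochondria and feeds the one-carbon units used for nucleotide synthesis.

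The promoters of the genes were searched for the binding letters of factors of this pathway. Windows of 300 bases, from 250 bases before to 50 after a gene start, were taken from the RefSeq promoter table (GRCh38.p14), which held 8 of the 10 genes, and were searched on both strands for TGATGNAA, the composite element bound by ATF4 with a C/EBP partner, and for CACGTG, the E-box bound by MYC and related factors. The composite element was present in ASNS and CHAC1, 2 of 8, beside 2.57% of 8650 tested genes with a window and 3.62% of all 35116 windows. The E-box was present in ATF4 only, 1 of 8, beside 12.9% of tested genes and 7.26% of all windows. A match is a description of letters, with no measurement of binding. The 3 stretches hold the first match found in each of these genes, and any further match in the same gene was not listed. They are shown 5′ to 3′ on the strand of the gene, with the matched letters in capitals. The capitals of CHAC1 are the composite element read on the opposite strand.
ASNS: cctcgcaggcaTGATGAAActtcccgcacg
CHAC1: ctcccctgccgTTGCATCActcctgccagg
ATF4: gaggagacggtCACGTGgtcgcggcggaag

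By exact match the ASNS stretch lies at chr7:97501770-97501799 of hg19 on the minus strand, at positions −79 to −50 from the RefSeq start, outside 14 of 17 annotated transcripts and exonic in 3. The CHAC1 stretch lies at chr15:41245449-41245478 on the plus strand, at positions −220 to −191, exonic in 1 of 3 transcripts. The ATF4 stretch lies at chr22:39916471-39916500 on the plus strand, at positions −93 to −64, exonic in 1 of 11 transcripts. ASNS and CHAC1, the genes with the composite element, were both lower with 5 µM CBP30, and so were 6 genes of the set without such a match or without a window.

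Of the series as a whole, the sum of all FPKM ranged from 547504 to 689095 per sample and the median of tested genes from 11.1 to 11.6. FPKM values carry no counts, which leaves sequencing depth unknown, and precision was judged from the spread between 2 samples. Replicate 1 of 2 µM CBP30 stood apart. Its median log2 deviation from the DMSO mean was 0.26 in the shortest of 5 equal groups of genes by transcript length and −0.28 in the longest, and the translation factor gene EEF1A1 was listed at 0 in it while it was between 5338 and 6661 FPKM in the other 9 samples. All 9 erythroid K562 markers were detected. Their summed level was between 1898 and 1946 FPKM in the DMSO samples and between 624 and 651 FPKM with 5 µM CBP30. There, 8 were called lower and TAL1 higher, beside 25.4% lower and 21.2% higher among all tested genes. The 8 markers of T cells, B cells, fibroblasts, epithelium and hepatocytes summed to between 61.5 and 89.4 FPKM over the 10 samples, with the B cell gene MS4A1 at 0 throughout. Most of that sum was EPCAM, with a mean of 59.2 FPKM in DMSO and 32.4 with 5 µM CBP30, and CD3D, with 16.5 and 24.6. Only 5 of the 8 were tested, and with 5 µM CBP30 3 were called higher and EPCAM lower, beside the same shares of all tested genes. The part of the marker genes in the changes below was not tested. In bulk RNA, fewer cells of a kind and less RNA per cell cannot be told apart.

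With 5 µM CBP30, 8 of the 10 genes were lower than in DMSO and none was higher, at a Benjamini-Hochberg adjusted p under 0.05 in limma's moderated test of log2(FPKM + 1) across all tested genes. Among all genes tested, 25.4% were called lower and 21.2% higher. TRIB3 fell the most, to 33.3% of its DMSO mean, followed by ASNS at 51.1%, CHAC1 at 55.5%, PHGDH at 61.7% and DDIT3 at 63.5%. ATF4 itself fell to 70.0%, PSAT1 to 71.4% and SHMT2 to 74.1%. PSPH at 83.0% and SESN2 at 90.2% did not pass the threshold. The median change of the 10 genes was −0.58 on the log2 scale, beside −0.0096 for all genes tested. Both 5 µM CBP30 samples were below both DMSO samples in 10 of the 10 genes, a separation that 42.6% of all tested genes also showed. Both 5 µM CBP30 samples had a trend along transcript length, with median log2 deviations from the DMSO mean of −0.12 and −0.11 in the shortest of 5 length groups and of 0.11 and 0.11 in the longest, and the 10 genes, with transcripts of between 1067 and 3462 bases, lie in the 3 shorter groups. With that trend removed, 9 of the 10 genes were called lower, PSPH among them, and the changes were smaller, from −1.47 for TRIB3, −0.87 for ASNS and −0.39 for ATF4 to −0.15 for PSPH and −0.11 for SESN2, which was not called.

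**Figure D1:**
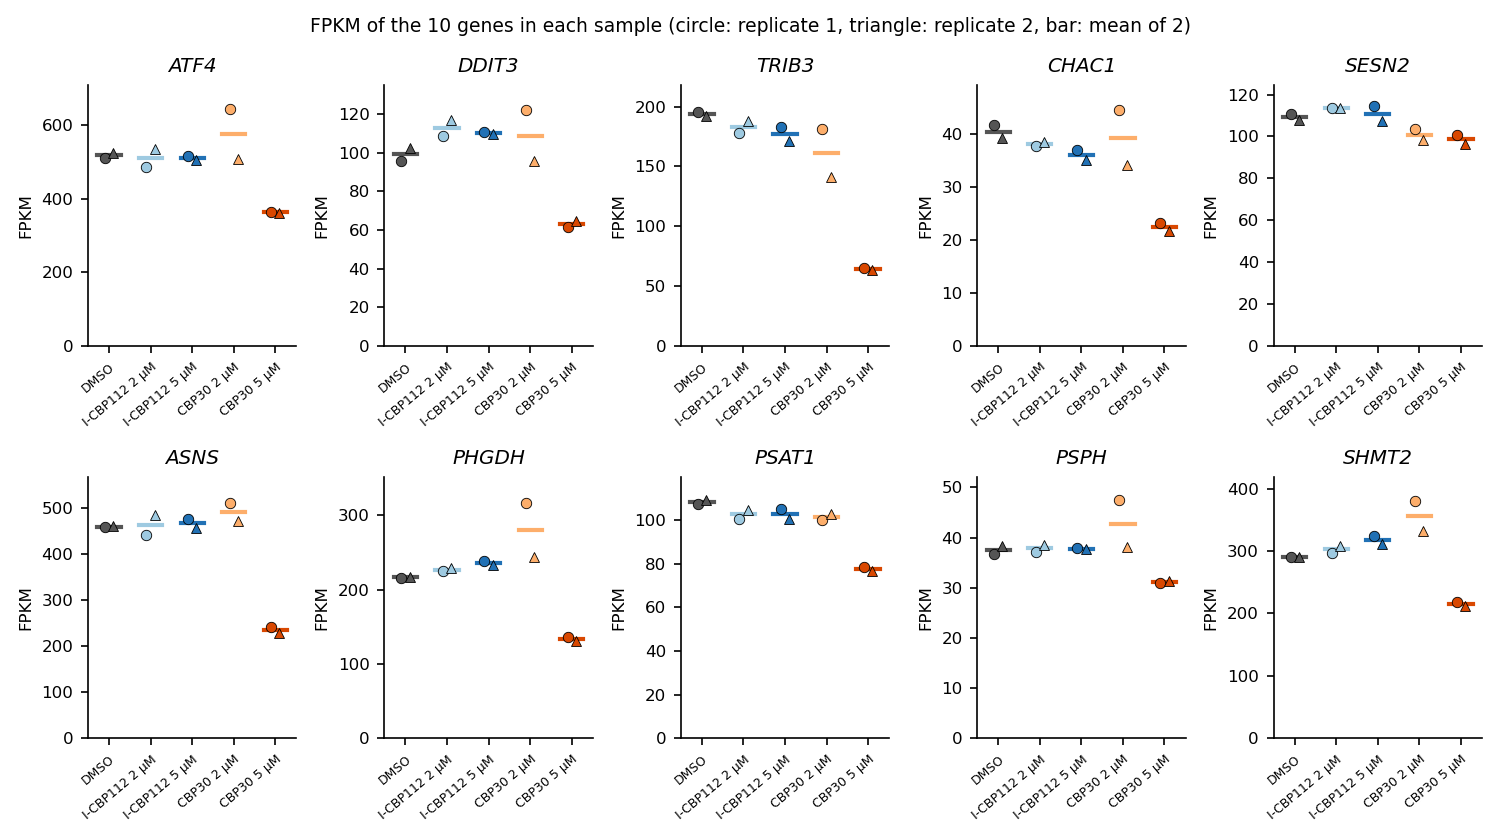
FPKM (vertical axis, linear, from 0) of each of the 10 genes in each of the 10 samples, with circles for replicate 1, triangles for replicate 2 and a bar at the mean of the 2 samples, by treatment. The 5 µM CBP30 samples lie below both DMSO samples in all 10 panels, from TRIB3 at 33.3% of the DMSO mean to SESN2 at 90.2%, and the 2 replicates of 2 µM CBP30 lie apart in most panels.

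ATF4 (hg19 chromosome 22, 39915700 to 39918688, plus strand) was abundant, above 98.9% of tested genes in DMSO. Its level was 511 and 524 FPKM in the DMSO samples, 364 and 360 with 5 µM CBP30, 643 and 508 with 2 µM CBP30, 485 and 534 under 2 µM I-CBP112, and 516 and 505 with 5 µM I-CBP112. The 5 µM CBP30 samples were the lowest of all 10, and those of the other treatments surrounded the DMSO values. The log2 fold change with 5 µM CBP30 was −0.51 (SE 0.109, adjusted p = 0.00738). Of all tested genes, 12.6% had a change at or below that of ATF4. GENCODE names 4 pseudogenes of ATF4 that are not rows of the table, and reads shared with them could not be separated here.

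DDIT3 (CHOP; chromosome 12, 57910371 to 57915520, minus strand) is a C/EBP family factor that ATF4 induces and that is linked to cell death in prolonged stress. It was at 95.9 and 102 FPKM in DMSO and at 61.3 and 64.5 with 5 µM CBP30, with no overlap and a log2 fold change of −0.65 (SE 0.109, adjusted p = 0.0027). It was at 122 and 95.6 with 2 µM CBP30, and with I-CBP112 at 109 and 117 for 2 µM and at 111 and 109 for 5 µM. None of these changes passed the threshold. Exons of DDIT3 overlap those of the methionyl-tRNA synthetase gene MARS on the other strand by 355 bases. The libraries were stranded, but the strand setting of the quantification is not given in the sources used here, and MARS was also lower with 5 µM CBP30, by a log2 fold change of −0.60 (adjusted p = 9.59e-05).

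TRIB3 (chromosome 20, 343479 to 378203, plus strand) encodes a pseudokinase that is induced by ATF4 and DDIT3 and dampens their activity. Its FPKM was 196 and 192 in DMSO and 65.3 and 63.9 with 5 µM CBP30. The log2 fold change of −1.57 (SE 0.109, adjusted p = 5.39e-05) was larger than that of the other 9 genes, and only 1.19% of all tested genes had a change at or below it. TRIB3 was at 181 and 141 with 2 µM CBP30, at 178 and 188 under 2 µM I-CBP112 and at 183 and 171 with 5 µM I-CBP112. Its changes under these treatments did not pass the threshold.

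CHAC1 (chromosome 15, 41245160 to 41248710, plus strand) degrades glutathione and is a late target of the ATF4 and DDIT3 axis. It was the second least abundant of the set, at 41.6 and 39.1 FPKM in DMSO and 23.2 and 21.6 with 5 µM CBP30, a log2 fold change of −0.82 (SE 0.114, adjusted p = 0.00109). The 2 µM CBP30 samples, 44.4 and 34.1, fell on either side of DMSO. It was at 37.6 and 38.5 with 2 µM I-CBP112 and at 36.8 and 35.0 with 5 µM I-CBP112.

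SESN2 (chromosome 1, 28586029 to 28609002, plus strand) encodes a leucine sensor that restrains mTORC1 and responds to ATF4 and to p53. It moved least. It was at 111 and 108 FPKM in DMSO, 101 and 96.6 with 5 µM CBP30, 103 and 98.3 with 2 µM CBP30, 113.5 and 113.4 under 2 µM I-CBP112, and 115 and 107 with 5 µM I-CBP112. The change of −0.15 with 5 µM CBP30 did not pass (95% confidence interval −0.28 to −0.02, adjusted p = 0.0586). Left without either 2 µM CBP30 sample, the fit had a smaller residual spread and called SESN2 and PSPH lower as well, which made 10 of 10.

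ASNS (chromosome 7, 97480989 to 97501854, minus strand) makes asparagine from aspartate and glutamine and is a classical ATF4 target. Its FPKM was 459 and 462 in DMSO and 242 and 228 with 5 µM CBP30, a log2 fold change of −0.97 (SE 0.0717, adjusted p = 7.16e-05). The other treatments left it near DMSO, at 512 and 472 with 2 µM CBP30, 442 and 485 under 2 µM I-CBP112 and 476 and 458 with 5 µM I-CBP112. ASNS was the second most abundant gene of the set in DMSO, after ATF4. It has 5 named pseudogenes in GENCODE, none of them a row of the table. A long noncoding RNA gene of GENCODE on the same strand overlaps the exons of ASNS by 2415 bases, and reads shared with it could not be separated here.

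Of the serine synthesis enzymes, PHGDH and PSAT1 fell and PSPH did not pass. PHGDH (chromosome 1, 120191034 to 120286841, plus strand), which oxidizes 3-phosphoglycerate in the first step, was at 216 and 217 FPKM in DMSO and 136 and 131 with 5 µM CBP30, with a log2 fold change of −0.69 (SE 0.109, adjusted p = 0.00191). PSAT1 (chromosome 9, 80912041 to 80945009, plus strand), the aminotransferase of the next step, was at 107 and 109 in DMSO and 78.2 and 76.5 with 5 µM CBP30, a change of −0.48 (SE 0.0484, adjusted p = 0.000271). The groups did not overlap for either gene.

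PSPH (chromosome 7, 56078744 to 56119297, minus strand), the phosphatase that releases serine, was the least abundant of the 10 genes. It was at 36.7 and 38.3 FPKM in DMSO and at 31.0 and 31.3 with 5 µM CBP30, and its change of −0.26 did not pass (95% confidence interval −0.48 to −0.04, adjusted p = 0.0538). SHMT2 (chromosome 12, 57623356 to 57628718, plus strand), which splits serine to glycine, fell from 290.2 and 289.8 FPKM to 218 and 212, a change of −0.43 (SE 0.071, adjusted p = 0.0024). The first enzyme of the pathway thus had a larger point estimate than the last, but no test compared the genes with each other. PSAT1 has 4 named pseudogenes and PSPH has 1. Exons of SHMT2 overlap those of a long noncoding RNA gene by 352 bases and those of NDUFA4L2 by 33 bases, both on the other strand.

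**Figure D2:**
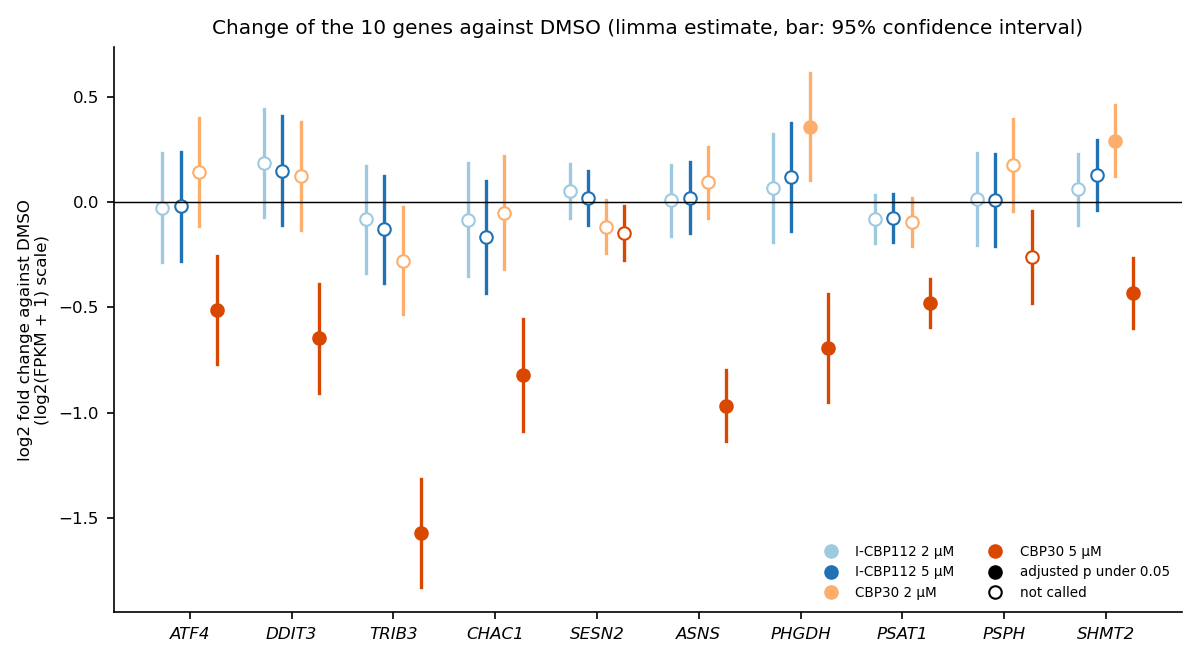
Log2 fold change against DMSO (vertical axis, log2(FPKM + 1) scale) of the 10 genes for the 4 treatments, with bars for the 95% confidence interval and filled points where the adjusted p was under 0.05. With 5 µM CBP30 8 points are filled and below 0, with 2 µM CBP30 those of PHGDH and SHMT2 are filled and above 0, and no I-CBP112 point is filled.

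With 2 µM CBP30 the set did not fall. PHGDH and SHMT2 were called higher than in DMSO, 2 of 10 genes, and none was called lower, where 15.9% of all tested genes were called higher and 16.3% lower. PHGDH was at 316 and 244 FPKM beside 216 and 217 in DMSO, a log2 fold change of 0.36 (SE 0.109, adjusted p = 0.0423). SHMT2 was at 380 and 333 beside 290.2 and 289.8, a change of 0.29 (SE 0.071, adjusted p = 0.0205). Neither gene was called in a fit of only the groups compared. PHGDH was not called in 10 of 20 alternatives, the fit without the filter on mean FPKM among them, with a change of 0.36 in each. SHMT2 was not called in 3 of 20, with a change of 0.29 in each. Both treated samples of both genes were above both DMSO samples. The share of all tested genes with such a separation was not counted for this dose, so it adds no support to these calls.

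The other 8 genes did not pass with 2 µM CBP30. The change of TRIB3 was −0.28 (adjusted p = 0.091), the only one of these with an unadjusted p under 0.05 for a fall. PSAT1, at 99.9 and 103 FPKM, had a change of −0.10, and PSPH, at 47.4 and 38.1, one of 0.18. Those of ATF4, DDIT3, ASNS and CHAC1 were 0.14, 0.12, 0.09 and −0.05.

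These values rest on a pair of samples that disagreed. Replicate 1 was above replicate 2 in 9 of the 10 genes, PSAT1 being the other, with a median difference of 0.32 on the log2(FPKM + 1) scale. In the other 4 conditions the median absolute difference between replicates was between 0.033 and 0.059. Against the DMSO mean, CHAC1 was 0.14 higher in replicate 1 and 0.24 lower in replicate 2 (−0.24), DDIT3 was at 0.30 and −0.05, and ATF4 at 0.31 and −0.03. PHGDH, at 0.55 and 0.17, and SHMT2, at 0.39 and 0.20, were above the DMSO mean in both replicates, and TRIB3, at −0.10 and −0.46, was below it in both.

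Without replicate 1, TRIB3 and CHAC1 were called lower and PHGDH and SHMT2 higher, 4 genes in all. Without replicate 2, 5 were called, all of them higher: ATF4, DDIT3, PHGDH, PSPH and SHMT2. Without either DMSO sample none was called. Replicate 1 had a trend along transcript length in the direction opposite to that of the 5 µM CBP30 samples. With the length trends removed, 5 genes were called: PHGDH and SHMT2 higher, and TRIB3 (−0.36), CHAC1 (−0.19) and SESN2 (−0.13) lower.

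**Figure D3:**
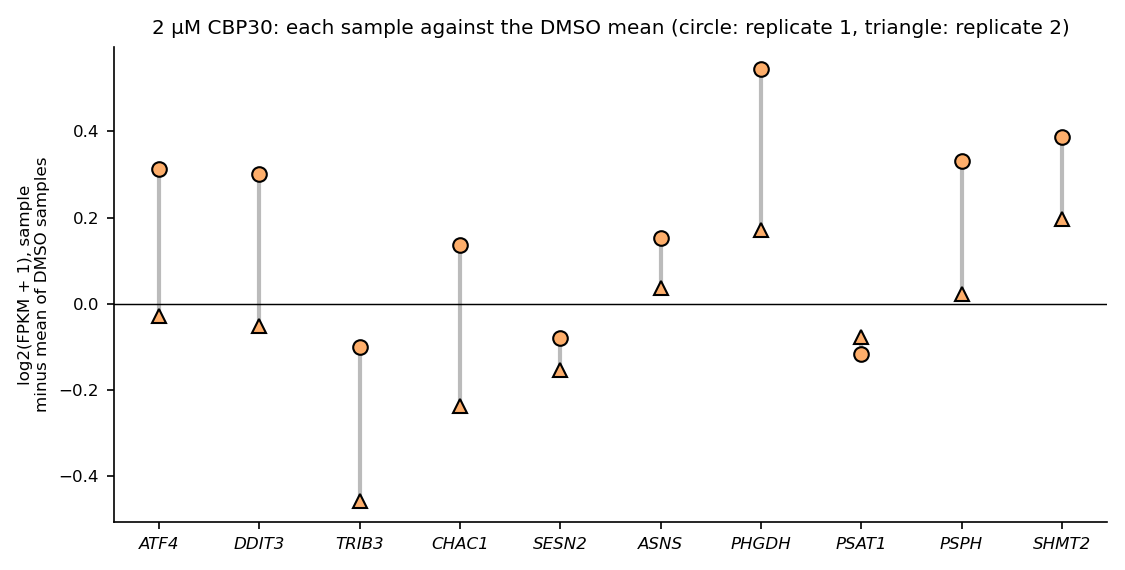
Each 2 µM CBP30 sample minus the mean of the DMSO samples (vertical axis, log2(FPKM + 1) units) for the 10 genes, with circles for replicate 1, triangles for replicate 2 and a grey line between them. Replicate 1 is above replicate 2 in 9 genes, and the 2 samples fall on opposite sides of 0 for ATF4, DDIT3 and CHAC1.

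I-CBP112 moved none of the 10 genes past the threshold. None was called with 5 µM, where 7.12% of all tested genes were called, nor with 2 µM, where 1.6% were called, and none had an unadjusted p under 0.05 in limma in either comparison. With 5 µM the log2 fold changes ran from −0.16 for CHAC1 (95% confidence interval −0.43 to 0.10) to 0.15 for DDIT3 (−0.11 to 0.41), with a median of 0.02. With 2 µM they ran from −0.08 for CHAC1 to 0.19 for DDIT3 (−0.07 to 0.44), with a median of 0.01. PHGDH was at 225 and 228 FPKM with 2 µM and at 238 and 232 with 5 µM, and SHMT2 at 297 and 308 and then at 324 and 311. PSAT1 was at 100.2 and 105 and then at 105 and 100.3. For PSPH the values were 37.2 and 38.6, then 37.9 and 37.7, around DMSO. When either 2 µM CBP30 sample was left out of the fit, 2 genes were called higher with 5 µM I-CBP112, PHGDH (0.12) and SHMT2 (0.13).

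Between the doses, 9 of the 10 genes were lower with 5 µM than with 2 µM CBP30, beside 21.3% of all tested genes called lower. The differences were −1.29 for TRIB3, −1.06 for ASNS, −1.05 for PHGDH, −0.77 for DDIT3 and for CHAC1, −0.72 for SHMT2, −0.66 for ATF4, −0.44 for PSPH and −0.38 for PSAT1, with adjusted p between 0.000416 and 0.0135. SESN2, at −0.03 (95% confidence interval −0.16 to 0.10), did not pass. In a fit of only these 4 samples none of the 10 genes passed, with the same differences. For I-CBP112 the step from 2 to 5 µM moved none of them past the threshold, beside 0.0626% of all tested genes, and the differences lay between −0.08 for CHAC1 (−0.35 to 0.19) and 0.07 for SHMT2 (−0.10 to 0.24), with none at an unadjusted p under 0.05 in limma.

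**Figure D4:**
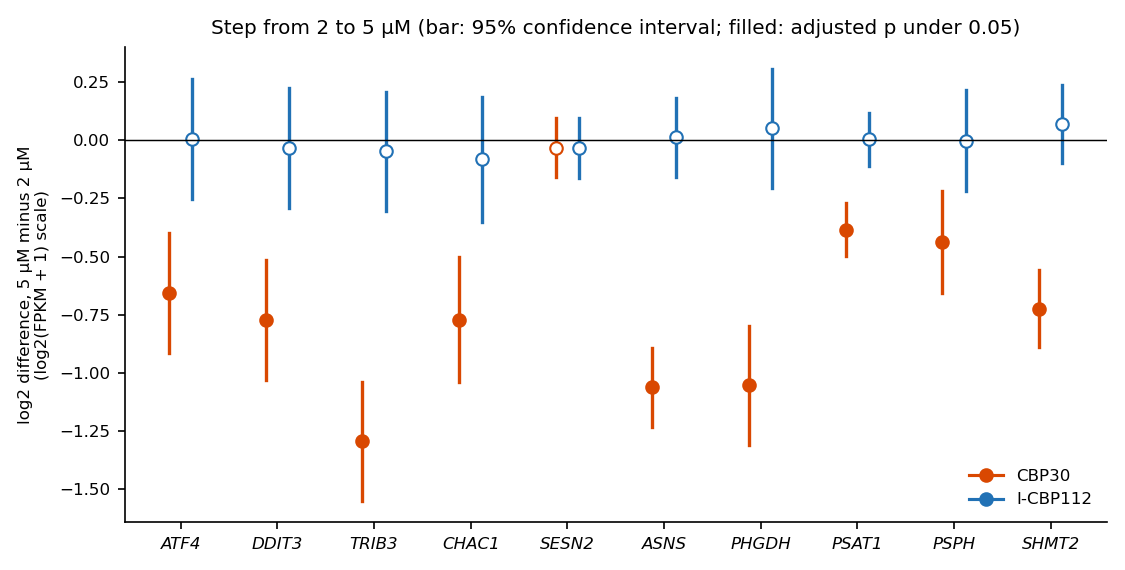
Difference between 5 and 2 µM (vertical axis, log2(FPKM + 1) units) of each of the 10 genes for CBP30 and for I-CBP112, with bars for the 95% confidence interval and filled points where the adjusted p was under 0.05. The CBP30 points are filled and below 0 in 9 genes, down to −1.29 for TRIB3, and the I-CBP112 points lie between −0.08 and 0.07.

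At the same concentration of 5 µM, 8 of the 10 genes were lower with CBP30 than with I-CBP112, beside 17.9% of all tested genes called lower. The authors describe I-CBP112 as the less potent compound, and inhibition of the target was not measured in these samples. They used 2 µM CBP30 as a dose reported to be unlikely to affect bromodomains of the BET family. Any part of that family in the changes with 5 µM was not tested. TRIB3 differed by −1.44 (adjusted p = 0.00023), ASNS by −0.99 (0.000203 as adjusted p), PHGDH by −0.81, DDIT3 by −0.80, CHAC1 by −0.66, SHMT2 by −0.56, ATF4 by −0.49 and PSAT1 by −0.40. SESN2 differed by −0.17 (95% confidence interval −0.30 to −0.04) and PSPH by −0.27 (−0.49 to −0.05), without passing. At 2 µM the compounds were not told apart by any of the 10 genes, where 15.6% of all tested genes were called. There, 3 genes had an unadjusted p under 0.05 in limma: PHGDH, 0.29 higher with CBP30 (95% confidence interval 0.04 to 0.55), SHMT2, 0.23 higher (0.06 to 0.40), and SESN2, with a difference of −0.17 (−0.30 to −0.04). Without replicate 1 of 2 µM CBP30, 3 genes were called in this comparison, and without replicate 2, 5 were.

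The dose step of CBP30 was lower than that of I-CBP112 in 6 of the 10 genes (TRIB3, PHGDH, ASNS, SHMT2, DDIT3 and PSAT1), beside 3.32% of all tested genes. This test of the difference between the steps was added after the values had been seen, and it rests on the 2 µM CBP30 samples. The count was 9 without replicate 1 of 2 µM CBP30 2 or 3 without either DMSO sample, and 1 without any single 5 µM CBP30 or I-CBP112 sample.

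Upstream of ATF4, 10 genes for eIF2α kinases, eIF2α itself, its phosphatase subunits and GCN2 regulators were examined with 5 µM CBP30. There were 3 called lower and 1 higher, beside 25.4% and 21.2% of all tested genes. Those lower were EIF2S1 (−0.32), which encodes eIF2α, PPP1R15A (−0.47), the stress-inducible phosphatase subunit and itself an ATF4 target, and IMPACT (−0.43), an inhibitor of GCN2 activation. EIF2AK3 (PERK, the kinase of the endoplasmic reticulum) was higher, at 5.45 and 5.35 FPKM beside 3.81 and 4.28 in DMSO, a change of 0.35 (adjusted p = 0.0139). The changes of EIF2AK1, EIF2AK2 and EIF2AK4, the kinases for heme shortage, double-stranded RNA and amino acid shortage, were 0.01, 0.22 and 0.21 and did not pass. The median of the list was 0.11. Over the alternatives, 2 to 4 of the list were called lower and 0 to 5 higher with 5 µM CBP30. EIF2AK3 was not called in 3 of 19 alternatives, with changes of 0.28 to 0.36 there. PPP1R15A was not called in 4 of 20, with changes of −0.49 to −0.45. The lower dose gave 5 called lower, EIF2AK1 (−0.23) and EIF2AK2 (−0.42) among them, and 1 higher, beside 16.3% and 15.9% of all tested genes. EIF2AK2 was at 5.74 FPKM in replicate 1 and 8.29 in replicate 2 of 2 µM CBP30, beside 9.60 and 9.58 in DMSO. It was not called in 12 of 20 alternatives, and EIF2AK1 was not called in 3 of 20. The alternatives gave 0 to 7 lower and 0 to 2 higher.

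Most other partners and targets of ATF4 were lower too. Of 21 listed, 20 were tested, 15 were called lower and 1 higher with 5 µM CBP30, beside 25.4% and 21.2% of all tested genes, with a median log2 fold change of −0.61. ATF5, a related factor under similar translational control, went from 64.4 and 67.6 FPKM to 18.8 and 17.7, a change of −1.80. LONP1, a mitochondrial protease, went from 187 and 174 to 63.8 and 62.7 (−1.50), STC2, a secreted glycoprotein, from 11.0 and 11.2 to 3.29 and 3.37 (−1.48), and FAM129A from 21.7 and 21.8 to 8.75 and 8.54 (−1.24). The gene called higher was ATF3, a stress-induced partner of the same family, at 0.35, named here because it was the single exception. At 2 µM CBP30 7 of the list were called lower and 1 higher, beside 16.3% and 15.9% of all tested genes, and these counts ranged from 0 to 10 and from 0 to 6 over the alternatives. For 5 µM I-CBP112 1 was called, STC2 (−0.36), beside 7.12% of all tested genes.

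Of 18 further genes of serine, glycine and one-carbon metabolism, 16 were tested. With 5 µM CBP30, 9 were called lower and 3 higher, beside 25.4% and 21.2% of all tested genes, and the median was −0.15. The mitochondrial enzyme MTHFD1L, which releases formate, went from 108 and 109 FPKM to 45.9 and 41.8 (−1.29), and the mitochondrial formyltetrahydrofolate dehydrogenase ALDH1L2 from 14.6 and 16.1 to 6.07 and 5.90 (−1.23). SRR, the serine racemase, was higher by 0.63, at 6.03 and 5.87 FPKM beside 3.41 and 3.56, and the remaining higher genes were MTFMT and TYMS, named after their values were seen. SRR was also called higher with 5 µM I-CBP112, at 0.44. The 2 µM dose of CBP30 gave 3 lower and 3 higher, beside 16.3% and 15.9% of all tested genes. Over the alternatives these counts were 1 to 6 lower and 0 to 5 higher.

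Amino acid transporters were called lower with 5 µM CBP30 in 8 of 10 cases, beside 25.4% of all tested genes, with a median of −0.44. None was called higher, beside 21.2% of all tested genes, and none was higher at an unadjusted p under 0.05 in limma. SLC6A9, the glycine transporter GLYT1, went from 26.2 and 25.2 FPKM to 10.3 and 9.76 (−1.27). SLC43A1 changed by −0.78, SLC1A5, which carries glutamine and other neutral amino acids, by −0.46, and SLC7A1, which carries arginine and lysine, by −0.45. The number of transporters called lower ranged from 3 to 10 over the alternative settings. At the lower dose of CBP30 5 were lower (0 to 5 over the alternatives), beside 16.3% of all tested genes. SLC6A9 was the transporter that was also lower with 5 µM I-CBP112 (−0.40).

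The ATF6 and XBP1 arms of the unfolded protein response act beside the PERK arm that leads to ATF4. Of 16 genes of these arms, 6 were called lower and 3 higher with 5 µM CBP30, with a median of 0.007, beside 25.4% lower and 21.2% higher among all tested genes. EDEM1 (0.71), which takes part in the disposal of misfolded glycoproteins, and the chaperone gene CALR (0.49) were higher, whereas SEL1L (−0.68), of the same disposal machinery, and ATF6 (−0.49) were lower. At 2 µM CBP30 3 were lower and 7 higher, beside 16.3% and 15.9% of all tested genes, with 0 to 4 lower and 0 to 10 higher over the alternatives. For 5 µM I-CBP112 none was called, with 1 lower and 6 higher at an unadjusted p under 0.05 in limma.

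**Figure D5:**
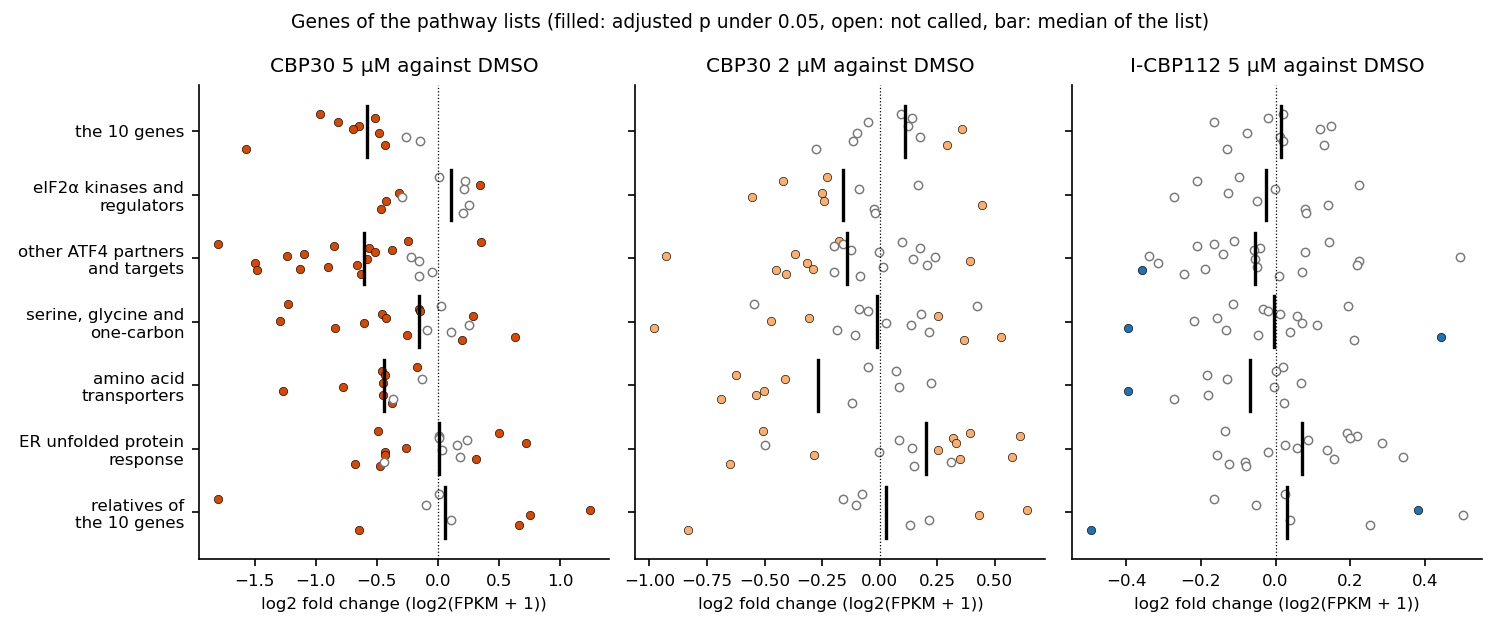
Log2 fold change against DMSO (horizontal axes, log2(FPKM + 1) scale, a different range in each panel) of every tested gene of the 10 and of 6 further lists, for 5 µM CBP30, 2 µM CBP30 and 5 µM I-CBP112, with filled points where the adjusted p was under 0.05 and a bar at the median of each list. With 5 µM CBP30 the medians are −0.58 for the 10 genes, −0.61 for other ATF4 partners and targets and −0.44 for amino acid transporters, and the other medians lie between −0.15 and 0.11.

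Relatives of the 10 genes by family included called genes of both directions. SESN1, the sestrin best known as a p53 target, was at 20.2 and 21.0 FPKM with 5 µM CBP30 beside 7.72 and 8.57 in DMSO, a change of 1.24 (adjusted p = 5.3e-05), while SESN2 had one of −0.15. TRIB1 was higher (0.66) and TRIB2 lower (−0.65) beside the fall of TRIB3 by 1.57. TRIB2 was at 57.8 and 55.7 FPKM with 2 µM CBP30 beside 103 and 101 in DMSO, and it was the relative that was also lower with both doses of I-CBP112. In all, 2 of 8 relatives were called lower with 5 µM CBP30 (ATF5 and TRIB2) and 3 higher (SESN1, TRIB1 and SESN3). Among all tested genes, 25.4% were called lower and 21.2% higher. SESN3 was below 1 FPKM on average in every condition, and highest with 5 µM CBP30, at 0.933 beside 0.149 in DMSO. Without the 5 µM CBP30 samples its mean was below the filter of 0.5 FPKM, so its call is not read as a result. ATF5 and SHMT1 stand in 2 of the lists. MYC, which shares targets with ATF4 in amino acid metabolism, was at 338 and 320 FPKM in DMSO, 148 and 146 with 2 µM CBP30, 81.7 and 80.9 with 5 µM CBP30, 241 and 231 under 2 µM I-CBP112, and 209.6 and 200.7 with 5 µM I-CBP112. MYC was below DMSO in all 8 treated samples. Its part in the changes of the 10 genes was not tested.

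Across the 10 samples the genes of the set followed each other closely, apart from SESN2. The Pearson correlation of log2(FPKM + 1) over 10 samples had a median of 0.92 over 45 pairs and reached 0.994, between PHGDH and SHMT2, while SESN2 had a median of 0.62 with the other 9. These are descriptions over 5 conditions, in which the 2 samples of a condition share its treatment. The median over pairs of other tested genes was not calculated, and 46.6% of all tested genes were called with 5 µM CBP30. Replicate 1 of 2 µM CBP30 was above replicate 2 in 9 of the 10 genes, and its share in these correlations was not tested. Among 8739 genes that averaged 5 FPKM or more, those most like ATF4 over the 10 samples were GNB2L1 (r = 0.9997), which encodes the ribosomal protein RACK1, EIF2S2 (0.997), which encodes eIF2β, and RPS6 (0.995). Most like ASNS were DCTD (0.991), SLC43A1 (0.990) and LETMD1 (0.990), and most like PHGDH were CENPH (0.995), HERPUD1 (0.993) and RPL13A (0.988). By mean level, 5 µM CBP30 was the lowest of the 5 conditions for all 10 genes. The difference from the condition next in that order did not pass the threshold for SESN2 (2 µM CBP30) and PSPH (DMSO). For ATF4 the next condition was 2 µM I-CBP112, which was not compared with it directly, and for the other 7 genes the difference from the next condition passed.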

How the data were processed

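RNA-seq was measured in 10 samples of K562 cells, 2 per condition, named by GEO's labels. The authors sequenced stranded libraries of polyadenylated RNA as 50-base single reads, processed them with Nextpresso on hg19 and deposited 1 FPKM value per gene and sample, replicates not pooled. The submitters' processing notes name FastQC, TopHat2 2.0.10, Bowtie 1.0.0, SAMtools 0.1.19, Cufflinks 2.2.1 and Cuffnorm. The annotation is not given in the sources used here. FPKM values are scaled per library, so a shift in abundant genes can move others with it.

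Values were tested as log2(FPKM + 1), which understates changes of low genes, with limma 3.58.1 in R 4.3.3 (eBayes with trend). A single fit of all 5 groups (5 residual degrees of freedom, prior 2.15) tested 12788 of 23284 genes, those averaging 0.5 FPKM or more; 3976 were 0 in all samples. Adjusted p under 0.05 was called. The fit was tested on simulated data. Transcript lengths and hg19 positions came from GENCODE, matched by symbol for 92.0% of the table. Tables and figures used Python 3.11.15, pandas 2.3.3 and matplotlib 3.10.9. Named are the 10 genes, up to 4 genes per list with the largest change among those called with 5 µM CBP30 and at least 5 FPKM in the higher group, the eIF2α kinases, MYC, MARS for its overlap with DDIT3, and the 3 genes most like ATF4, ASNS and PHGDH. A gene that this rule covers is left out of the text. The genes and lists were chosen with earlier results of these data known. The alternatives tried were quantile normalization, median centring, a pseudocount of 0.1, tests without the filter or with one at 5 FPKM, eBayes without trend, a fit restricted to the groups in a comparison, a replicate block, removal of the length trend with and without the block, and leaving out each sample. The difference between dose steps was added after the data were seen.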

Additional observations from a re-analysis of the deposited data

Results flagged for a closer look

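The step from 2 to 5 µM differed between the compounds for 6 of the 10 genes, by a test of the difference itself that was chosen after the data had been seen (limma, adjusted over all tested genes). The step of CBP30 minus that of I-CBP112 was −1.25 for TRIB3 (adjusted p = 0.013), −1.10 for PHGDH (adjusted p = 0.0197), −1.07 for ASNS (adjusted p = 0.00598), −0.79 for SHMT2 (adjusted p = 0.0143), −0.74 for DDIT3 (adjusted p = 0.0462) and −0.39 for PSAT1 (adjusted p = 0.033) on the log2 scale. ATF4 (−0.66, adjusted p = 0.0562), CHAC1 (−0.69, adjusted p = 0.0558) and PSPH (−0.44, adjusted p = 0.0818) had differences of like size without passing, and SESN2 was at 0.00. Groups of 2 samples were too small for a test of single outlying samples.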

How the results depend on the processing

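With 5 µM CBP30 against DMSO the number of the 10 genes called was 8 to 10 under all alternatives and 8 to 10 when each sample was left out, and the 8 called genes stayed called and lower throughout. Against 5 µM I-CBP112 leaving out samples gave 7 to 10 genes. Other counts moved. For 2 µM CBP30 against DMSO (2 genes), no filter gave 1, a fit of only the groups compared 0, removal of the length trend 5 with or without the replicate block, and leaving out a sample 0 to 5. For 2 µM CBP30 against 2 µM I-CBP112 (0 genes), quantile normalization gave 2, removal of the length trend 4 with or without the block, and leaving out a sample 0 to 5. For 5 against 2 µM CBP30 (9 genes), a fit of only these 4 samples gave 0 and leaving out a sample 7 to 9. For 5 µM I-CBP112 against DMSO (0 genes), the length correction with the block gave 1 and leaving out a sample 0 to 2. For the difference between dose steps (6 genes), a fit of only those groups gave 2, the replicate block 4, and leaving out a sample 1 to 9. Counts were 0 throughout for 2 µM I-CBP112 against DMSO and between the I-CBP112 doses. Where a sample was left out, the single sample of its condition was taken to vary like the other groups. Directions turned for values that had not passed. With 2 µM CBP30, quantile normalization gave −0.0069 for ATF4 and −0.11 for ASNS, removal of the length trend −0.047 for DDIT3 with or without the block, and leaving out a sample ranged from −0.028 to 0.31 for ATF4, −0.051 to 0.30 for DDIT3 and −0.24 to 0.14 for CHAC1. For SESN2 between the CBP30 doses, quantile normalization gave 0.16, removal of the length trend 0.019 with or without the block, and leaving out a sample ranged from −0.069 to 0.0045. EIF2AK1 with 5 µM CBP30 ranged from −0.0057 to 0.023 when a sample was left out. The cause of these shifts was not tested. The replicate block turned no direction; the replicate numbers did not pair the samples (correlations of deviations from −0.068 to 0.094), so they are not treated as pairs. Read counts are absent from the values, so what depth limits cannot be stated.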
